A study of Mus musculus with 12 samples.

Results

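The 6 genes described here encode the proteins that start and restrain plasminogen activation and their relatives: *Plau*, *Plat*, *Plaur*, *Serpine2*, *Serpinb2* and *Serpinf1*. They were taken by symbol from a deposited expression table of 46731 genes, and all 6 were found. RNA was sequenced from ATDC5 cells, a mouse chondrogenic line derived from a teratocarcinoma, in 4 groups of 3 libraries. The cells carried an integrated lentiviral short hairpin and had been selected with puromycin. The control cells (shRNA-NC) carried a control hairpin in the same vector, and the knockdown cells (shRNA-*Ddx5*) a hairpin against *Ddx5*, a DEAD-box RNA helicase. Each of these lines was kept for 6 h in medium alone or with IL-1β at 5 ng/ml plus TNF-α at 25 ng/ml, referred to below as cytokines. The study describes the replicates as biologically independent. Each line is a transduced, drug-selected population, and whether it was cloned is not given in the sources used here. A single hairpin sequence against *Ddx5* is listed in the study. The p-values below measure the spread between libraries within these lines. A loss of *Ddx5*, an off-target effect of the hairpin and a difference between the lines therefore cannot be told apart. Below, the knockdown names the comparison of the lines. The question the design puts is which transcripts differ between them, in resting cells and under an inflammatory stimulus.

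Plasminogen activators are serine proteases that cut the zymogen plasminogen to plasmin, a broad protease that degrades fibrin and matrix proteins and activates latent matrix metalloproteinases. Urokinase (*Plau*) acts mainly on the cell surface, held by its GPI-anchored receptor (*Plaur*), and tissue plasminogen activator (*Plat*) works best when bound to fibrin. Serpins trap their target protease in a covalent complex: *Serpinb2* (plasminogen activator inhibitor type II) and *Serpine2* (protease nexin, which also inhibits thrombin) block these activators, while *Serpinf1* (PEDF) has the serpin fold but does not inhibit proteases. In cartilage and synovium the system is known for its place in matrix breakdown during inflammation.

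The promoters of 4 of the 6 genes were at hand from RefSeq on build GRCm38.p6, as windows of 300 bases from 250 before to 50 after an annotated start. The 3 printed here belong to 2 of the genes that were higher with cytokines (*Plaur* and *Serpinb2*) and to the one that was higher in both knockdown groups at a low level (*Serpine2*). *Plaur* lies on the plus strand at chr7:24462233-24462532, *Serpinb2* on the plus strand at chr1:107511173-107511472 and *Serpine2* on the minus strand at chr1:79858616-79858915. In the first 2 sequences capitals mark the AP-1 match TGANTCA. In the third they mark a possible G-quadruplex, a folded structure. It was searched as 4 runs of at least 3 G with loops of 1 to 7 bases. The motif to mark was picked for each gene, and the G-quadruplex matches of *Plaur* are left in small letters.
Plaur: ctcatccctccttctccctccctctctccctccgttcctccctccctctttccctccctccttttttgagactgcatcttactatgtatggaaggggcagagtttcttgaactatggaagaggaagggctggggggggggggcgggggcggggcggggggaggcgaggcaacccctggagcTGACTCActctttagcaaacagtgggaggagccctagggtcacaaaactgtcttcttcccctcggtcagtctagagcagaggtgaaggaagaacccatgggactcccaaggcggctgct
Serpinb2: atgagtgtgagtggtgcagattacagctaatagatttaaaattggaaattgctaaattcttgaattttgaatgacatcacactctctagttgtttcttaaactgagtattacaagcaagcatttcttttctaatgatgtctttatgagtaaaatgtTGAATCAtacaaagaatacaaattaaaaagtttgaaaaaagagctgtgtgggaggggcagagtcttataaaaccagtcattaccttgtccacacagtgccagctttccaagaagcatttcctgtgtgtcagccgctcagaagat
Serpine2: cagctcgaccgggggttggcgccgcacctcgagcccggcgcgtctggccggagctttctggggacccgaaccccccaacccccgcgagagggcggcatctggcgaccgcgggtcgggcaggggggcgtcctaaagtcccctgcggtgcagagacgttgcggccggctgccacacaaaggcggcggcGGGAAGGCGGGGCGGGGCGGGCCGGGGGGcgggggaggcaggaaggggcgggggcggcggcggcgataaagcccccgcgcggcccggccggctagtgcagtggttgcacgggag

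All matches were searched on both strands and are descriptions of the letters only. The AP-1 match lay 69 to 63 bases before the start of *Plaur* and 94 to 88 bases before the start of *Serpinb2*, and 7.81% of 32851 windows of this length held one. *Serpinb2* also held TATAAA 29 to 24 bases before its start, a match found in 13.6% of windows. A second annotated start of *Serpinb2* gave an overlapping window with the same matches. The capitals of *Serpine2* covered 64 to 36 bases before the start, and a G-quadruplex match was found in 18.6% of windows. *Plaur* held such a match 125 to 91 bases before its start and a pair on the other strand. None of the 5 windows held the NF-kB consensus, which 8.46% of windows held. The *Serpinf1* window, on chromosome 11, held none of the 4 motifs. The windows differed in base composition: G and C made up 77.7% of *Serpine2*, 59.3% of *Plaur*, 50.7% of *Serpinf1* and 35.3% of the first *Serpinb2* window, against a median of 52.7% over all windows.

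**Figure D1:**
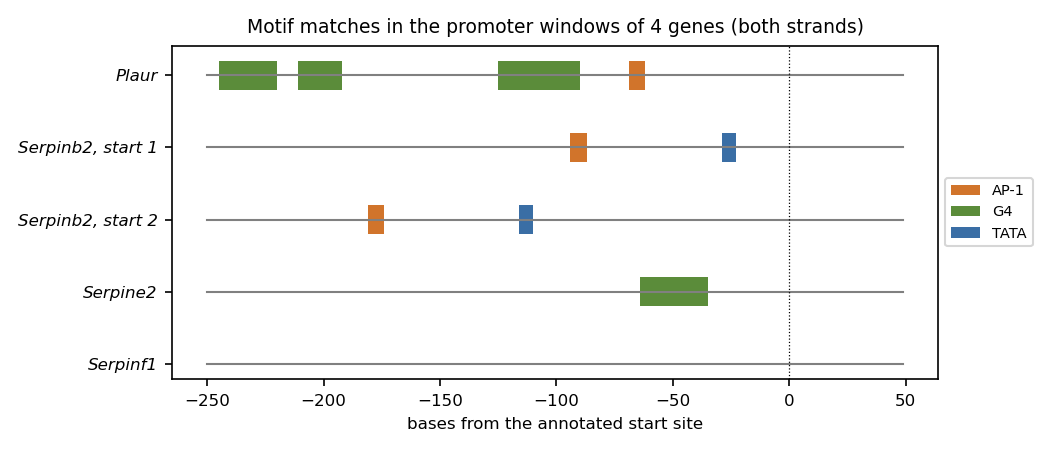
Motif matches in 5 promoter windows of 4 genes. The horizontal axis is the distance in bases from the annotated start site (dotted line), grey lines are the windows and coloured boxes the matches on either strand. AP-1 matches lie in the *Plaur* window and both *Serpinb2* windows, TATAAA in both *Serpinb2* windows, and the *Serpinf1* window is empty.

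Values were FPKM, a measure of transcript level per unit of gene length and sequencing depth. The libraries held 14119199 to 19276520 fragments assigned to genes. As a check of the labels, the targeted *Ddx5* was at 103 ± 13.9 FPKM (SD, n = 3) in knockdown against 319 ± 22.3 in control cells in medium, and at 99.5 ± 5.27 against 310 ± 14.9 with cytokines. Chondrogenic markers were in part present: *Sox9* (group means of 5.4 to 27.5 FPKM) and *Col2a1* (0.779 to 12.4) were measured, while *Acan* and *Matn3* had at most 4 fragments in any library. The summed FPKM of the 9 chondrogenic markers was 39.2 to 44.3 in shRNA-NC and 26.4 to 30.1 in shRNA-*Ddx5* cells in medium, and 12.9 to 18 and 7.31 to 8.07 with cytokines. These sums rested mainly on *Sox9* and *Col2a1*. In medium *Sox9* had means of 27.5 in control and 24.1 FPKM in knockdown cells, and *Col2a1* had 12.4 and 0.899. With cytokines the means were 8.76 and 5.4 for *Sox9* and 6.33 and 0.779 for *Col2a1*. By contrast, 3 markers of lower level had higher means in knockdown than in control cells in medium (*Sox6* 0.914 and 0.171, *Col10a1* 0.248 and 0.0384, *Hapln1* 0.11 and 0 FPKM). The 4 pluripotency markers, mostly *Sox2*, summed to 8.81 to 14.8 FPKM in shRNA-NC and 14 to 20.7 in shRNA-*Ddx5* cells in medium, and to 4.95 to 5.74 and 4.65 to 5.43 with cytokines, with *Pou5f1* and *Zfp42* at 0. Both sums moved with the groups, and their part in the results below was not tested. The 5 leukocyte markers summed to 1.2 to 2.15 FPKM in all libraries with *Ptprc* at 0, and the 4 endothelial markers to 0.0155 to 0.151 with *Cdh5* at 0. In bulk RNA, a change in the number of cells of a type and a change of RNA per cell cannot be told apart.

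The knockdown raised *Plau* 3.54-fold in medium, and the cytokines raised it in control cells and lowered it in knockdown cells. *Plat* and *Plaur* rose with cytokines in both lines. *Serpinf1* was the most abundant of the 6, at 208 FPKM or more in every library, and was higher in knockdown cells under both conditions. *Serpinb2* was seen only with cytokines, and *Serpine2* was low throughout. Differences were tested as log2(FPKM + 1) with limma in a single fit of all 12 libraries, over the 12368 genes that reached 1 FPKM in 3 or more libraries. P-values were adjusted by Benjamini-Hochberg and called under 0.05. On this scale the changes of genes near or under 1 FPKM are understated. Of the 6 genes, 5 passed the filter, *Serpinb2* only through its cytokine libraries, and *Serpine2* did not.

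*Serpinb2* entered the test through the cytokine libraries in which it was high, so it is left out of the counts that follow. For the knockdown in medium, 3 of the other 4 tested genes were called higher (*Plau*, *Plat* and *Serpinf1*) and none lower, where 25.3% of all tested genes were called higher and 21.7% lower. For the knockdown with cytokines, *Serpinf1* was called higher and *Plau* lower, against 23.5% higher and 22.1% lower over all genes. Cytokines in shRNA-NC cells raised 3 of the 4 (*Plau*, *Plat* and *Plaur*), against 18.6% of all genes called higher and 15.2% lower. In shRNA-*Ddx5* cells they raised 2 (*Plat* and *Plaur*) and lowered 1 (*Plau*), against 13.5% of all genes in each direction. The interaction asks whether the effect of cytokines differed between the lines. It was called for *Plau* alone among the 4, where 3.46% of all genes had a larger and 4.75% a smaller cytokine effect in knockdown cells. The comparisons share libraries and are not independent of each other.

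**Figure D2:**
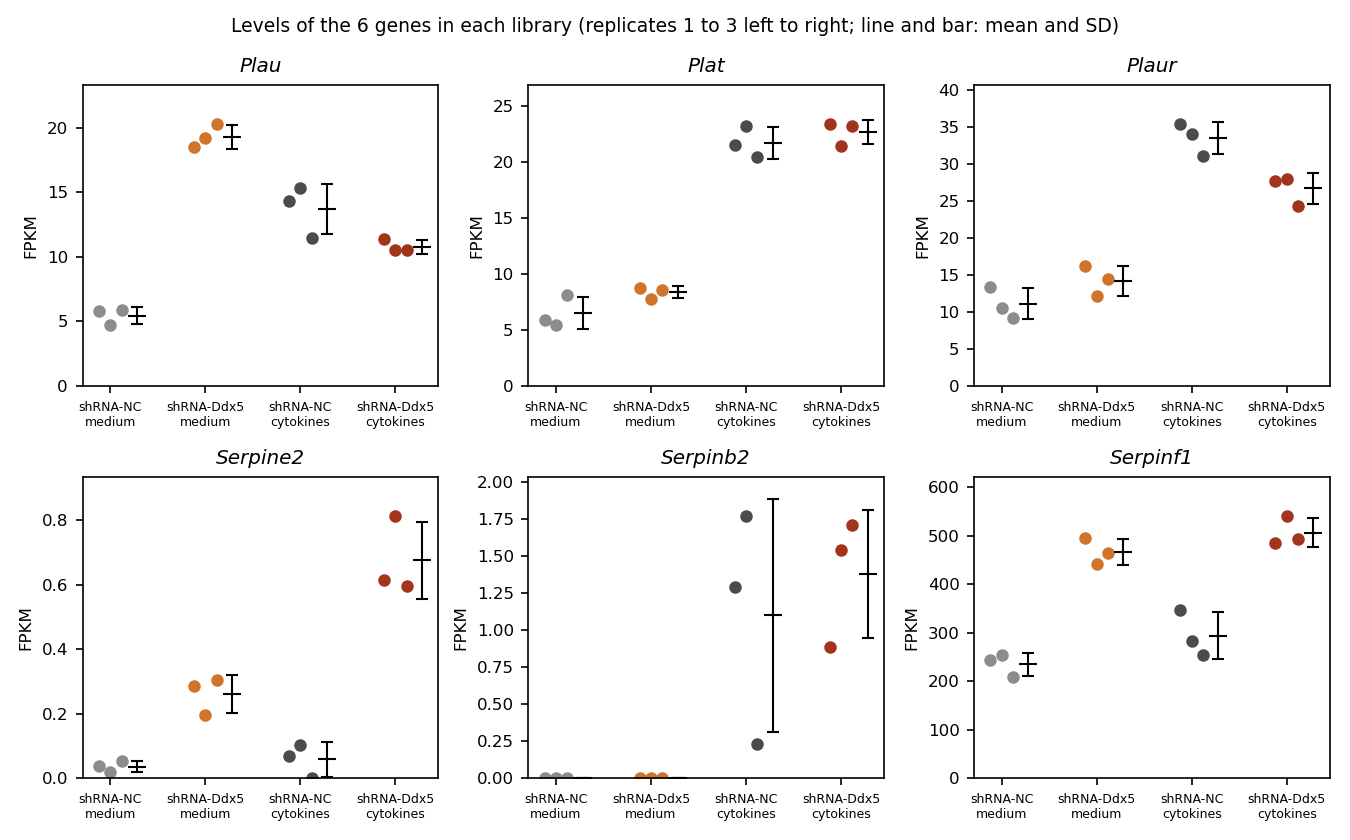
FPKM of the 6 genes in each of the 12 libraries. Each panel has its own vertical axis in FPKM from 0, points are replicates 1 to 3 of a group from left to right, and the line with its bar is the mean and SD. *Plau* is highest in shRNA-*Ddx5* cells in medium (18.5 to 20.3), *Plat* and *Plaur* are highest with cytokines, and *Serpinb2* is at 0 in all 6 medium libraries.

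*Plau* (gene 18792) lies on the plus strand of chromosome 14 from 20886730 to 20893456 on GRCm39. Its FPKM in shRNA-NC cells in medium was 5.84, 4.69 and 5.86 in replicates 1 to 3 (5.46 ± 0.669, SD, n = 3), and in shRNA-*Ddx5* cells it was 18.5, 19.2 and 20.3 (19.3 ± 0.915). With cytokines it was 14.3, 15.3 and 11.5 in shRNA-NC cells (13.7 ± 1.96) and 11.4, 10.5 and 10.5 in shRNA-*Ddx5* cells (10.8 ± 0.539). The groups did not overlap in any of these comparisons, and every knockdown library in medium stood above all others. The rise with the knockdown in medium was 1.66 on the log2 scale (SE 0.11, adjusted p = 1.2e-06, limma). Cytokines raised the gene 2.51-fold in shRNA-NC cells (log2 1.18, SE 0.11, adjusted p = 1.3e-05, limma). In shRNA-*Ddx5* cells they lowered it to 0.56 of its level in medium (log2 -0.78, SE 0.11, adjusted p = 0.00025, limma). The cytokine effect therefore differed between the lines by -1.97 (SE 0.15, adjusted p = 5.7e-05, limma). From low to high the groups ran shRNA-NC in medium, shRNA-*Ddx5* with cytokines, shRNA-NC with cytokines and shRNA-*Ddx5* in medium. The middle pair were close: the knockdown lowered *Plau* with cytokines to 0.789 of the control (log2 -0.31, SE 0.11, adjusted p = 0.037, limma). That call was lost without any filter (adjusted p = 0.067), with quantile normalization (0.05), and when any 1 of the 6 cytokine libraries other than shRNA-NC replicate 3 was left out, with log2 values of -0.23 to -0.35 in those 5 fits.

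*Plat* (gene 18791), the tissue-type activator, lies on the plus strand of chromosome 8 from 23247655 to 23272864. In medium its FPKM was 5.89, 5.46 and 8.11 in shRNA-NC cells (6.49 ± 1.42, SD, n = 3) and 8.78, 7.79 and 8.6 in shRNA-*Ddx5* cells (8.39 ± 0.527). With cytokines it was 21.5, 23.2 and 20.4 (21.7 ± 1.41) and 23.4, 21.4 and 23.2 (22.7 ± 1.07). All 6 cytokine libraries were above 20 FPKM and all 6 medium libraries below 9. Cytokines raised it 3.34-fold in shRNA-NC cells (log2 1.61, SE 0.12, adjusted p = 1.8e-06, limma) and 2.7-fold in shRNA-*Ddx5* cells (log2 1.33, SE 0.12, adjusted p = 6.2e-06). The difference between these effects, -0.28 (SE 0.17), did not pass (adjusted p = 0.34, limma), although it did without shRNA-NC medium replicate 3, the highest of its group (-0.43, adjusted p = 0.045). The knockdown gave 0.34 in medium (SE 0.12, adjusted p = 0.032, limma), with overlapping groups, and 0.06 with cytokines (adjusted p = 0.7). The call in medium was lost without any filter (0.061), after rescaling to the sum of fragments (log2 0.25, adjusted p = 0.098), in a fit of the 6 medium libraries alone (0.097), and without shRNA-NC medium replicate 1 or 2 or shRNA-*Ddx5* medium replicate 1 or 3 (log2 0.24 to 0.32).

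The balance of the 2 activators moved with them. *Plat* made up 50.2%, 53.8% and 58.1% of the summed *Plau* and *Plat* FPKM in shRNA-NC cells in medium (54% ± 3.91, SD, n = 3) and 32.1%, 28.9% and 29.7% in shRNA-*Ddx5* cells (30.3% ± 1.69). With cytokines the shares were 60%, 60.3% and 63.9% (61.4% ± 2.17) and 67.2%, 67.1% and 68.8% (67.7% ± 0.975). *Plau* was thus the more abundant activator transcript, per length, in knockdown cells in medium alone of the 4 groups. Knockdown minus control, the *Plat* share differed by -23.8 percentage points in medium and by 6.29 with cytokines. Cytokines moved it by 7.36 points in shRNA-NC and by 37.4 points in shRNA-*Ddx5* cells. The groups did not overlap in any of the 4 comparisons. The exact two-sided permutation test gave p = 0.1 for each, the smallest that 3 against 3 libraries allow.

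**Figure D3:**
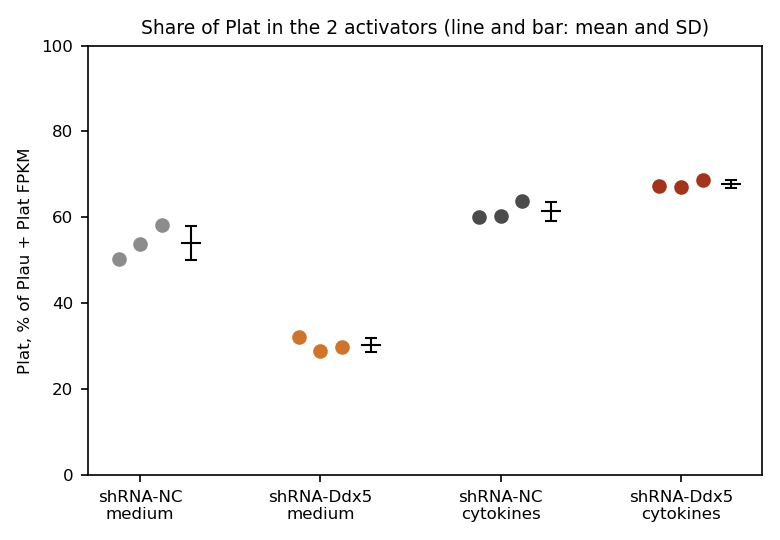
Share of *Plat* in the summed FPKM of *Plau* and *Plat*, in percent from 0 to 100 on the vertical axis, for the 4 groups. Points are replicates 1 to 3, the line and bar the mean and SD; the shRNA-*Ddx5* libraries in medium lie at 28.9% to 32.1%, below all others.

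*Plaur* (gene 18793), the urokinase receptor, lies on the plus strand of chromosome 7 from 24161857 to 24175393. Its FPKM was 13.4, 10.6 and 9.24 in shRNA-NC (11.1 ± 2.11, SD, n = 3) and 16.2, 12.2 and 14.4 in shRNA-*Ddx5* cells in medium (14.2 ± 2). With cytokines it was 35.4, 34 and 31.1 (33.5 ± 2.2) and 27.7, 28 and 24.3 (26.7 ± 2.09). The highest group was thus shRNA-NC with cytokines, and its 3 libraries were above those of knockdown cells with cytokines. Cytokines raised the receptor 3.02-fold in shRNA-NC cells (log2 1.53, SE 0.13, adjusted p = 7.3e-06, limma) and 1.87-fold in shRNA-*Ddx5* cells (log2 0.87, SE 0.13, adjusted p = 0.00048). The difference between these effects was -0.66 (SE 0.19) and just missed the threshold (adjusted p = 0.052, limma). It passed with quantile normalization (-0.71, adjusted p = 0.033) and without shRNA-NC medium replicate 1 (-0.79, 0.02) or shRNA-*Ddx5* medium replicate 2 (-0.76, 0.033). The knockdown itself gave 0.34 in medium (SE 0.13, adjusted p = 0.051, limma), with overlapping groups, and -0.32 with cytokines (SE 0.13, adjusted p = 0.067). Without those same medium libraries the value in medium passed (log2 0.47, adjusted p = 0.011, and 0.44, 0.022). The value with cytokines passed with quantile normalization (0.031), rescaling to the sum of fragments (0.03), voom weights (0.046), in a fit of the 6 cytokine libraries alone (0.018), and without shRNA-NC medium replicate 1 (0.036) or 3 (0.041).

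*Serpinf1* (gene 20317; chromosome 11, 75300855 to 75313449, minus strand) encodes a secreted protein known for restraining blood vessel growth. Its FPKM in medium was 243, 253 and 208 in shRNA-NC (235 ± 23.7, SD, n = 3) and 495, 442 and 465 in shRNA-*Ddx5* cells (467 ± 26.8). With cytokines it was 347, 283 and 254 (294 ± 47.5) and 485, 540 and 492 (506 ± 29.8). All 6 knockdown libraries were above all 6 control libraries. The knockdown raised it 1.99-fold in medium (log2 0.99, SE 0.12, adjusted p = 7.5e-05, limma) and 1.72-fold with cytokines (log2 0.79, SE 0.12, adjusted p = 0.00035). The cytokine values were 0.32 in shRNA-NC (SE 0.12, adjusted p = 0.065, limma) and 0.11 in shRNA-*Ddx5* cells (adjusted p = 0.53), and their difference was -0.20 (SE 0.17, adjusted p = 0.52). The first of these passed with voom weights (adjusted p = 0.044) and without shRNA-NC cytokines replicate 3 (log2 0.42, adjusted p = 0.032). The second was -0.04 with quantile normalization.

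*Serpinb2* (gene 18788), an inhibitor of both activators that is kept largely inside the cell, lies on the plus strand of chromosome 1 from 107439153 to 107453330. It had no fragment in any of the 6 medium libraries. With cytokines its FPKM was 1.29, 1.77 and 0.234 in shRNA-NC cells (1.1 ± 0.787, SD, n = 3), from 44, 68 and 9 fragments. In shRNA-*Ddx5* cells it was 0.886, 1.54 and 1.71 (1.38 ± 0.433), from 30, 50 and 55 fragments. One shRNA-NC library, replicate 3, thus stood well below the other cytokine libraries. Set against a floor of 3 fragments over the 3 medium libraries, the summed cytokine fragments, scaled for depth, gave ratios of 41.6 in shRNA-NC and 49.1 in shRNA-*Ddx5* cells. These ratios make no allowance for counting error or for the spread between replicates. Since the gene was tested only through its cytokine libraries, no p is given for its rise. Between the lines with cytokines the difference was 0.24 (SE 0.24, adjusted p = 0.45, limma), and the ratio of summed fragments was 1.26 (95% exact interval 0.975 to 1.62, counting error only). Without shRNA-NC cytokines replicate 3 the difference was -0.10, and so was that between the cytokine effects, which was 0.24 over all libraries (SE 0.34, adjusted p = 0.72, limma).

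*Serpine2* (gene 20720) spans 79772038 to 79836382 of chromosome 1 on the minus strand. In medium its FPKM was 0.038, 0.0193 and 0.0521 in shRNA-NC cells, from 2, 1 and 2 fragments, and 0.286, 0.195 and 0.304 in shRNA-*Ddx5* cells, from 12, 9 and 14. With cytokines it was 0.0703, 0.104 and 0 in shRNA-NC cells, from 3, 5 and 0 fragments, and 0.615, 0.812 and 0.597 in shRNA-*Ddx5* cells, from 26, 33 and 24. Every knockdown library lay above every control library, and all were below 1 FPKM. Summed over the groups, 35 against 5 fragments gave a ratio of 7.46 for the knockdown in medium (95% exact interval 2.91 to 24.4), and 83 against 8 gave 11.7 with cytokines (5.66 to 27.9). Cytokines gave a ratio of 2.58 in shRNA-*Ddx5* cells (1.72 to 3.95) and 1.65 in shRNA-NC cells (0.476 to 6.41), where a change was not detectable at this depth. These intervals cover counting error only. In a fit of all 27209 genes with a fragment, the log2 values were 0.28 for the knockdown in medium (adjusted p = 0.0054, limma), 0.66 with cytokines (adjusted p = 4e-05), 0.41 for cytokines in knockdown cells (0.00095) and 0.03 in control cells (0.85).

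**Figure D4:**
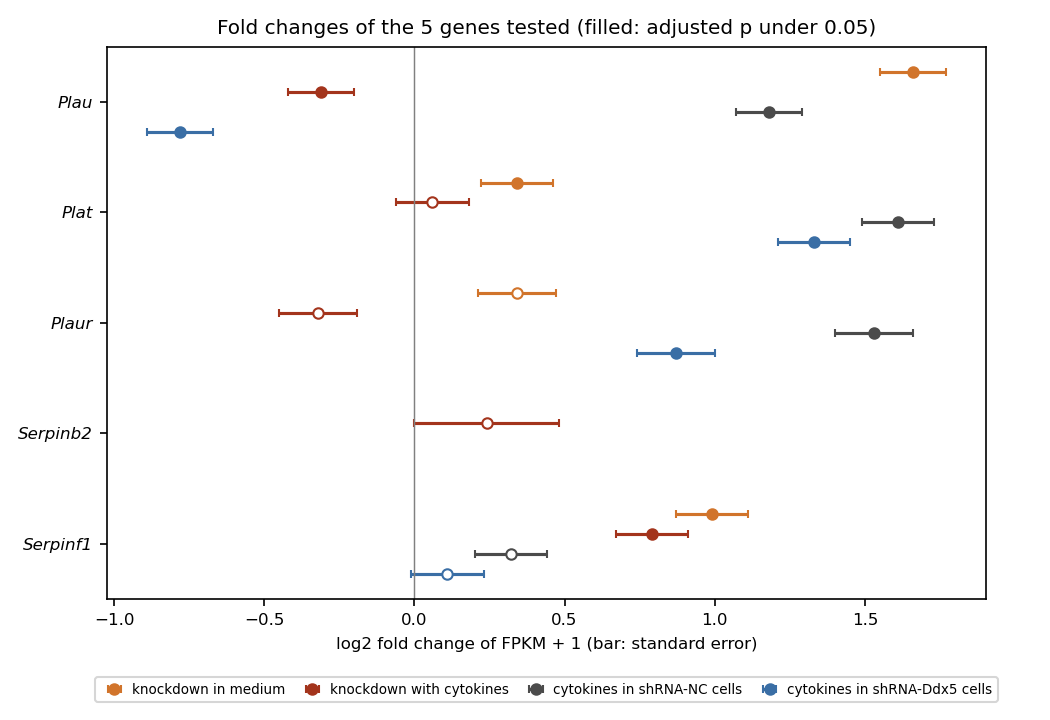
Log2 fold changes (FPKM + 1) of the 5 tested genes in 4 comparisons, on the horizontal axis, with standard errors as bars. Filled points passed an adjusted p of 0.05 and the vertical line marks no change; *Serpinb2*, listed at 0 in medium, has a point only for the knockdown with cytokines. *Plau* is the gene whose cytokine values lie on opposite sides of 0 in the 2 lines (1.18 and -0.78).

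Other genes of the plasminogen system were taken from a list of 23, of which 18 are not among the 6 genes above. Of these 18, 8 were tested, 5 were below the filter and 5 had no fragment in any library, plasminogen itself (*Plg*) among them. The knockdown in medium raised 5 of the 8 and lowered 2 (median log2 0.46, against 0.03 over all tested genes), beside 25.3% and 21.7% of all genes. With cytokines it raised 5 and lowered 2 (median 0.37, against 0.01), beside 23.5% and 22.1%. Of the lowered genes, *Serpini1*, a serpin that inhibits tissue plasminogen activator, reached 1 FPKM in no knockdown library in medium. It passed the filter mainly through control libraries. *Serpini1* was also among the genes called lower with cytokines in shRNA-NC cells. Its calls are not read as results, although the counts and medians given here hold them. The other gene lowered by the knockdown, in medium and with cytokines, was *Igf2r*. With quantile normalization, 3 were raised by the knockdown with cytokines, and 1 rather than 2 was lowered without shRNA-NC cytokines replicate 2 or 3 or shRNA-*Ddx5* cytokines replicate 1 or 2. Cytokines raised 1 and lowered 3 in shRNA-NC cells (median -0.27, against 0.02), beside 18.6% and 15.2%, and 1 was lowered without shRNA-NC medium replicate 3 or shRNA-NC cytokines replicate 1. In shRNA-*Ddx5* cells they raised 1 and lowered 1 (median -0.07, against 0.00), beside 13.5% in each direction, and raised 2 without shRNA-NC medium replicate 2 or 3 or shRNA-*Ddx5* medium replicate 1. The cytokine effect was larger in knockdown cells for 1 of the 8, *Lrp1* (adjusted p = 0.016, limma), beside 3.46% of all genes, and for 2 without shRNA-NC cytokines replicate 2.

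Among the surface proteins, *Mrc2*, a collagen-internalising receptor that associates with the urokinase receptor, had 23.7 ± 2.63 and 50.6 ± 7.48 FPKM (SD, n = 3) in control and knockdown cells in medium, and 13 ± 4.42 and 49.2 ± 1.16 with cytokines. The knockdown raised it in medium (log2 1.06, SE 0.19, adjusted p = 0.0011, limma) and with cytokines (1.90, adjusted p = 2.1e-05), and cytokines lowered it in control cells (-0.86, adjusted p = 0.0057). For knockdown cells the cytokine value was -0.03 (adjusted p = 0.93, limma), and the difference between the cytokine effects did not pass (0.84, adjusted p = 0.091). *S100a10*, which with annexin A2 forms a plasminogen receptor, was at 390 ± 76.1 and 586 ± 111 FPKM in medium and 780 ± 12.3 and 790 ± 36.7 with cytokines. It rose with the knockdown in medium (0.59, SE 0.15, adjusted p = 0.0086, limma) and with cytokines in control cells (1.02, adjusted p = 0.00047). In knockdown cells cytokines gave 0.45 (adjusted p = 0.051, limma), and the difference between these effects did not pass (-0.57, adjusted p = 0.14). *Lrp1*, an endocytic receptor that clears activator and inhibitor complexes, was at 25.3 ± 1.23 and 19.1 ± 1.14 FPKM in medium. With cytokines it was 11.7, 24.8 and 23.1 in shRNA-NC cells and 38.9 ± 3.54 in shRNA-*Ddx5* cells. The knockdown raised it with cytokines (1.00, SE 0.21, adjusted p = 0.0026, limma), and cytokines raised it in knockdown cells (0.99, adjusted p = 0.0048). *Eno1*, a glycolytic enzyme that also binds plasminogen at the cell surface, was at 245 ± 7.44 FPKM in control and 422 ± 28.5 in knockdown cells in medium, and at 279 ± 37.5 and 365 ± 20.4 with cytokines. The knockdown raised it in medium (0.78, SE 0.10, adjusted p = 0.00012, limma) and with cytokines (0.39, adjusted p = 0.0089), the latter not with quantile normalization (0.17, adjusted p = 0.14). *Igf2r* went the other way, at 37.2 ± 1.8 FPKM in control and 26.4 ± 0.418 in knockdown cells in medium. With cytokines it was at 31.5 ± 3.05 and 18.3 ± 0.934. The knockdown lowered *Igf2r* in medium (-0.48, SE 0.08, adjusted p = 0.00056, limma) and with cytokines (-0.75, adjusted p = 2.6e-05).

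**Figure D5:**
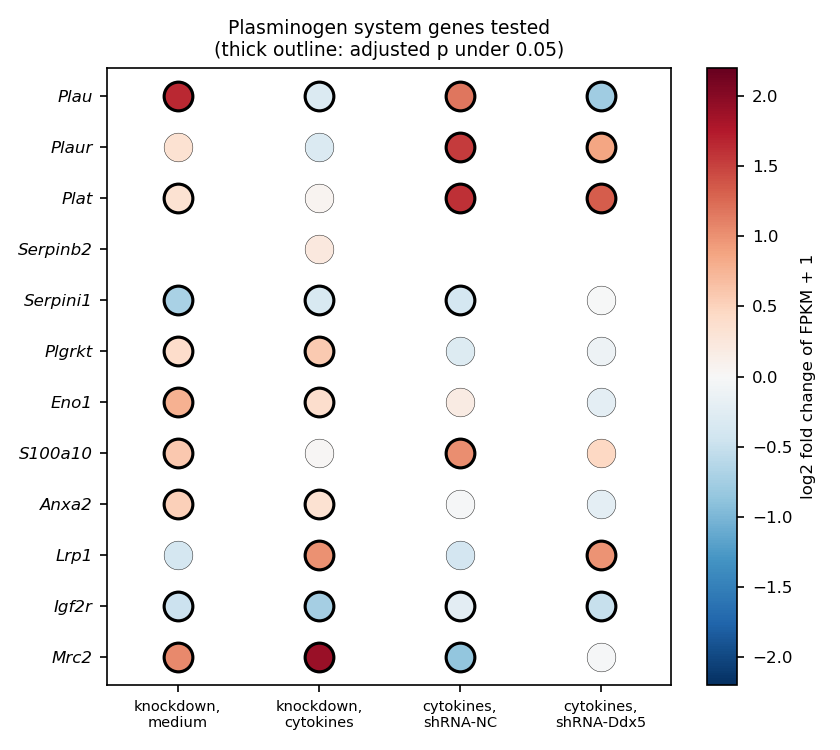
Log2 fold changes (FPKM + 1) of 12 tested genes of the plasminogen system, members included, in 4 comparisons (columns). Colour gives the log2 fold change, red up and blue down, and a thick outline an adjusted p under 0.05; *Serpinb2*, at 0 in medium, is shown only for the knockdown with cytokines. *Plau*, *Plat* and *Plaur* are all raised by cytokines in shRNA-NC cells, and *Plau* alone of these is lowered by them in shRNA-*Ddx5* cells.

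The serpin family was followed as well, as 63 genes named as serpins. Without the 3 described above there were 60, of which 12 were tested, 24 were below the filter and 24 had no fragment. Of the 12, 8 had at least 1 group in which no library reached 1 FPKM. They were thus tested only through the groups in which they were higher, and no count of calls is given over them. The rest reached 1 FPKM in every library. In medium and with cytokines, the knockdown gave log2 0.67 and 0.56 for *Serpinh1* (adjusted p = 0.0014 and 0.0045, limma). It gave -0.36 and -0.34 for *Serpinb6a* (0.0042 and 0.006) and -0.52 and -0.73 for *Serpinb9* (0.019 and 0.003). *Serpinb1a* had -0.65 and -0.08 (0.00043 and 0.58). *Serpinb8*, an intracellular serpin that inhibits furin, was at 2.01 ± 0.535 and 1.73 ± 0.184 FPKM (SD, n = 3) in shRNA-NC and shRNA-*Ddx5* cells in medium and at 0.464 ± 0.121 and 0.616 ± 0.146 with cytokines. It thus reached 1 FPKM in all 6 medium libraries and in none with cytokines. *Serpinb9c* was at 1.35 ± 0.454 and 0.24 ± 0.0138 FPKM in medium and at 0.872 ± 0.304 and 0.289 ± 0.081 with cytokines, and reached 1 FPKM in 3 control libraries and in no knockdown library. It belongs to a cluster of similar *Serpinb9* genes that may share reads.

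For each tested gene the 3 others with the most similar pattern were found by Pearson's r of log2(FPKM + 1) over the 12 libraries. The libraries share group and denominator, so these are descriptions. *Plau* was most like *Tpm1* (r = 0.967), *Cd276* (0.961) and *Twist1* (0.953). *Plat* was most like *Ripk2* (0.986), *Ccl2* (0.985) and *Bmper* (0.985). *Ccl2* went from 1.82 FPKM in shRNA-NC cells in medium to 1018 with cytokines, so that likeness of shape went with very different sizes of change. *Plaur* was most like *Nop2* (0.988), *Yars2* (0.986) and *Chchd4* (0.983). *Serpinb2* was most like *Csf2* (0.939), *Ereg* (0.939) and *Fbxw17* (0.937), and *Serpinf1* like *Eif4a-ps4* (0.986), *Dnajb11* (0.983) and *Ssr1* (0.979).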

How the data were processed

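Poly-A RNA of 12 ATDC5 libraries (4 groups of 3) was sequenced from both ends with a kit that does not mark strand. The authors counted fragments on genes and deposited FPKM per gene and library. The submitters' processing notes name HISAT2 2.0.5, featureCounts 1.5.0-p3, DESeq2 1.20.0, GATK 3.7 and build mm10, the paper another featureCounts version, and the coordinates in the file are those of GRCm39. No other gene of the table overlapped any of the 6.

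The product of FPKM and gene length came in whole steps within each library (100% of values within 0.01 of a whole number), which gave the fragments. The denominators were 0.957 to 1.08 times the sums of fragments, so the values already hold a scaling between libraries. This scaling went with the groups: the ratio was 1.06 to 1.08 in the shRNA-NC medium libraries and not above 1.04 in any other. With rescaling to the sum of fragments, the log2 value for the knockdown in medium went from 1.66 to 1.57 for *Plau* and from 0.34 to 0.25 for *Plat*. Of 46731 genes, 400 were unnamed loci and 19522 had no fragment.

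The groups came from the labels. The 12368 genes that reached 1 FPKM in 3 or more libraries were tested as log2(FPKM + 1) with limma 3.58.1 in R 4.3.3 (group means, contrasts, eBayes with trend), with Benjamini-Hochberg adjustment over all tested genes. In data simulated for the knockdown in medium (11954 genes), 86% of changes of 1 and 44% of changes of 0.5 on the log2 scale were recovered, and 5 of 11760 unchanged genes were called. The simulation used the same dispersion for every gene and changed 100 genes at each size. In the data 25.3% of tested genes were called higher and 21.7% lower, so these rates check the code and are not rates for the data. Low members were also given as ratios of summed fragments with 95% exact binomial intervals and a floor of 3 fragments. Alternatives were a pseudocount of 0.1, no filter, quantile normalization, rescaling to the sum of fragments, a replicate block, voom weights, only the libraries of the contrast, *Plat* as a share of fragments, and each library left out in turn.

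The members and lists were chosen with earlier results of these data known, and 1 gene of the lists is not reported here. Named were the members, *Ddx5*, up to 8 genes of each list with the largest log2 fold change (at least 0.5) among genes past the threshold, and the 3 genes most like each tested member. Also named were *Igf2r* and *Serpini1*, lowered by the knockdown, and the tested serpins that reached 1 FPKM in every library. Motifs were searched in RefSeq promoter windows on GRCm38.p6, and no coordinates were converted. Plots were made in Python 3.11.15 (matplotlib 3.10.9).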

Additional observations from a re-analysis of the deposited data

Results flagged for a closer look

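The effect of cytokines differed between shRNA-NC and shRNA-*Ddx5* cells, by the interaction term of limma, for *Plau* and *Lrp1*. The term was also past the threshold for 4 *Serpina3* genes. These entered the test only through libraries in which they were high, so their passing is not read as a result. The log2 difference for *Plau* was -1.97 (adjusted p = 5.7e-05, limma), and it stayed between -2.17 and -1.88 and past the threshold in every alternative fit. The difference was 1.39 for *Lrp1* (adjusted p = 0.016), with the larger cytokine effect in shRNA-*Ddx5* cells. It lay between 1.06 and 1.57 with each library left out, with adjusted p of up to 0.049 (limma). Replicate 1 of shRNA-NC with cytokines was at 11.7 FPKM for *Lrp1*, against 24.8 and 23.1 in replicates 2 and 3.

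The log2 difference was 1.14 for *Serpina3i*, 1.26 for *Serpina3h*, 1.31 for *Serpina3f* and 2.55 for *Serpina3g*. The first 3 reached 1 FPKM only in the 3 shRNA-*Ddx5* cytokine libraries, and *Serpina3g* in those and 1 shRNA-NC cytokine library. They were thus tested only through the group in which they were high, and no p is given for them. *Serpina3f*, *Serpina3g* and *Serpina3i* no longer passed with a pseudocount of 0.1 or with voom weights, and the first and the last of these, like *Serpina3h*, left the test when a shRNA-*Ddx5* cytokine library was left out. *Serpina3g* was at 0.314, 4.39 and 0.809 FPKM in shRNA-NC cells with cytokines and at 12.7, 14.1 and 13.6 in shRNA-*Ddx5* cells with cytokines. *Serpina3f*, with no fragment in medium, was at 0.0262, 0.909 and 0.116 and at 1.98, 2.61 and 2.08. *Serpina3i* was at 0, 0.239 and 0.0432 and at 1.47, 1.61 and 1.6, and *Serpina3h* at 0.204, 0.651 and 0.415 and at 2.21, 1.99 and 1.21. In shRNA-NC cells the second replicate was the highest for all 4 genes. The *Serpina3* genes belong to a family of similar genes that may share reads, so the value of any 1 of them is uncertain.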

How the results depend on the processing

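The number of the 6 genes called, here with *Serpinb2*, stayed within 1.5 times the reported count in all comparisons with a pseudocount of 0.1, rescaling to the sum of fragments, voom weights and, where it applies, only the libraries of the contrast. *Serpinb2* was called for cytokines in both lines, where it was tested only through its cytokine libraries, so its calls say nothing on stability. Such a count can also hide a change: with rescaling, *Plat* lost its call for the knockdown in medium (adjusted p = 0.098, limma). For the interaction the number went from 1 to 2 with no filter (*Plau* and *Serpine2*), with quantile normalization and with the replicate block (*Plau* and *Plaur* in both). With each library left out it was 1 to 3 for the knockdown with cytokines and 1 to 2 for the interaction. The 1 was reached without shRNA-NC cytokines replicate 1 or 2 or any shRNA-*Ddx5* cytokines library, where *Plau* was no longer called, and the 2 without shRNA-NC medium replicate 1 or 3 or shRNA-*Ddx5* medium replicate 2. The *Plat* share kept its sign and moved by less than the spread between replicates in all its alternatives. The sign turned for *Serpinb2*, at -0.10 without shRNA-NC cytokines replicate 3 for the knockdown with cytokines (leave-out range -0.10 to 0.48, adjusted p 0.12 to 0.72) and for the interaction (-0.10 to 0.48, 0.37 to 0.88), and for *Serpinf1*, at -0.04 with quantile normalization for cytokines in knockdown cells (adjusted p = 0.8, from 0.36 to 0.8 over the other settings). The cause was not tested. The interactions of *Serpina3f*, *Serpina3g* and *Serpina3i*, tested only through the libraries in which these genes were high, were lost with a pseudocount of 0.1 and with voom weights. Of the counts over the other plasminogen system genes and serpins, 21 of 240 fits without a library gave a lower and 7 a higher count by over 1.5 times.

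The labels give the same replicate numbers in each group. Deviations of libraries with the same number correlated between -0.394 and 0.448, with 4 of 18 pairs over 0.1, and 9 of 36 library and group combinations correlated best with their own number, so the pairing was not used. With the replicate block the log2 values of the members were as reported, *Plau* lost its call for the knockdown with cytokines (-0.31, adjusted p = 0.062), and *Plaur* gained calls for the knockdown in medium (0.028) and with cytokines (0.038) and for the interaction (0.036). No other member changed its call. *Serpine2*, with 0 to 33 fragments in a library, is limited by depth.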
